A study of Homo sapiens with 4 samples.

Results

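The genes described here are 46 subunits and partners of the constitutive proteasome and of the chaperonins, taken by symbol from a table of 35606 genes. They are 32 genes of the proteasome core and its 19S cap, 4 proteasome activators, 8 subunits of the cytosolic chaperonin TRiC and the 2 subunits of the mitochondrial chaperonin. All 46 were found, and all 46 passed the filter on low counts, which left 14750 genes for testing. Polyadenylated RNA of K562, a human chronic myeloid leukaemia line with erythroid features, was sequenced in 4 libraries. In 2 of them the cells were labelled as expressing JAZF1-SUZ12, and the other 2 came from mock cells, both in the same K562 background with no further treatment or time given. JAZF1-SUZ12 is a fusion of a zinc finger protein with a subunit of Polycomb repressive complex 2 that occurs in endometrial stromal tumours. How the fusion was introduced, what the mock cells received and whether replicates came from separate cultures are not given in the sources used here, so the p-values measure only the spread between these libraries, which may be technical.

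The proteasome degrades proteins that carry ubiquitin chains. Its 20S core is a barrel of stacked rings, in which alpha subunits gate the entrance and beta subunits hold the protease sites, while the 19S cap recognises, deubiquitinates and unfolds substrates. Alternative caps, the activators, open the core without ubiquitin recognition. Chaperonins are double-ring or single-ring chambers in which other proteins fold: TRiC folds actin and tubulin among other substrates, and HSPD1 with its lid HSPE1 works in the mitochondrial matrix. Transcription of proteasome genes is known to be driven by NFE2L1 when proteasome activity falls, and that of many chaperones by HSF1.

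The libraries held between 17261160 and 24423239 estimated counts, and members had from 834 to 17229 counts in a library. The JAZF1 gene held 574 and 731 counts with the fusion against 12 and 27 in mock, and SUZ12 was at 276.1 and 265.4 CPM (counts per 1000000, scaled for depth) against 137.0 and 132.6, so both genes followed the labels. The source label names uterus although the cell line is K562. All 12 erythroid markers examined were detected, with a summed level of 14550 to 15010 CPM in JAZF1-SUZ12 and 12900 to 13170 CPM in mock, and 5 of them rose while 1 fell. Of 10 stromal markers, LUM had 0 counts in every library and COL3A1 at most 3, and the summed level was 33.92 and 35.4 CPM against 17.39 and 16.35 CPM, mostly COL1A1, the 1 that rose. What part these marker differences have in the results below was not tested. In bulk RNA, fewer cells of a type and less RNA per cell cannot be told apart.

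Expression of 17 of the 46 genes was lower with JAZF1-SUZ12, 1 was higher (PSME1) and 28 did not pass the threshold (quasi-likelihood F test of edgeR, with p-values adjusted over all genes tested and a threshold of 0.05). The changes were small. The median log2 fold change was -0.115, a change of -7.68%, and no member changed by 1.5-fold. Called changes had sizes of 0.149 to 0.323 on the log2 scale, with standard errors of 0.040 to 0.075 over the members. Together the members took 1.13% and 1.10% of all counts with JAZF1-SUZ12, against 1.22% and 1.19% in mock, so the groups did not overlap.

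The share of members called lower, 37.0%, has to be read against other genes. Of all 14750 genes tested, 11.4% were called lower and 13.3% higher. These members are abundant genes, and among the 4535 genes with mean levels in their range, from PSME2 to HSPD1, 25.1% were called lower and 8.2% higher. In 34 of the 46 members both JAZF1-SUZ12 libraries lay below both mock libraries, compared with 30.3% of all genes and 51.8% of genes in the same range of levels. The log2 fold change was below 0 for 44 members, and for 70.2% of the genes in that range, whose median was -0.072 while that of all tested genes was 0.0032. Values below 0 were thus frequent among genes of this range of levels too.

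**Figure D1:**
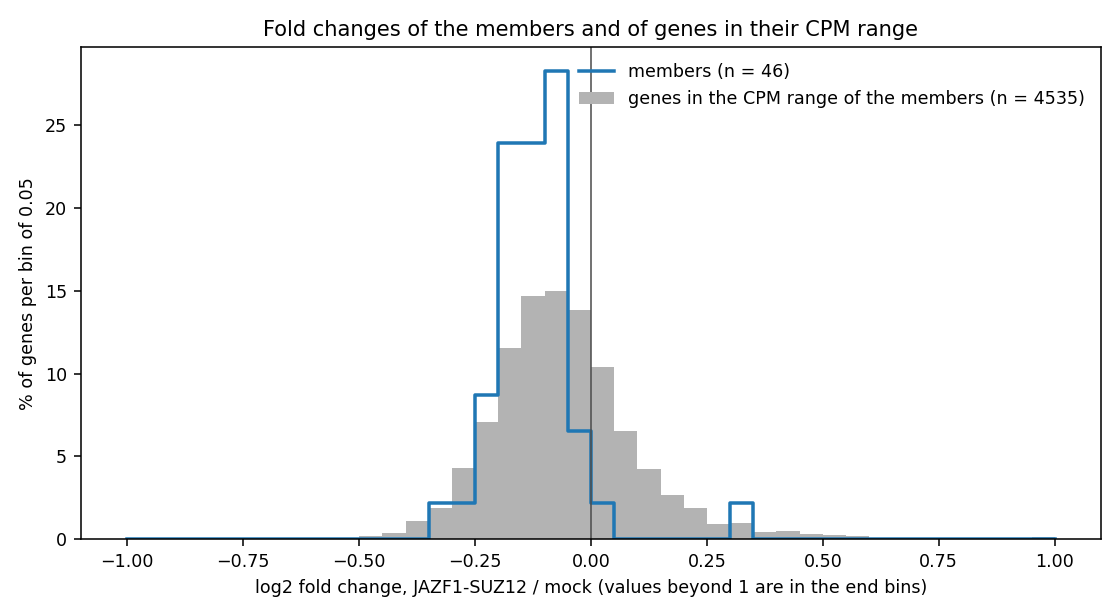
Distribution of log2 fold changes (JAZF1-SUZ12 over mock, x axis) as a percentage of genes per bin of 0.05 (y axis), for the 46 members (blue line) and the 4535 genes in their range of levels (grey bars). Both distributions lie mostly below 0, and the 1 member far to the right is PSME1.

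The count was lower under a joint correction for the base composition and length of the transcripts. The members' longest transcripts had a median length of 2510 bases and 46% GC, against 3974 bases and 47.9% in genes of the same range of levels. With a smooth correction for GC content and length in each library, 9 members were called lower and 3 higher, and the median was -0.055. Of the genes in the same range, 31.4% were then called lower, with a median of -0.072. With GC alone 16 members were called lower, beside 26.8% of the genes in the same range, and with length alone 15, beside 28.3%. The cause of these moves was not tested. Without mock replicate 1, 9 members and 17.4% of the genes in the same range were called lower. In the authors' deposited table, 10 members were called lower and 0 higher, and all 10 were among those called lower here. Of all its 15895 genes with an adjusted p, 3.57% were called lower. No share was computed there for genes in the members' range of levels. In the fit made here, 11.4% of all genes and 25.1% of genes in that range were called lower.

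**Figure D2:**
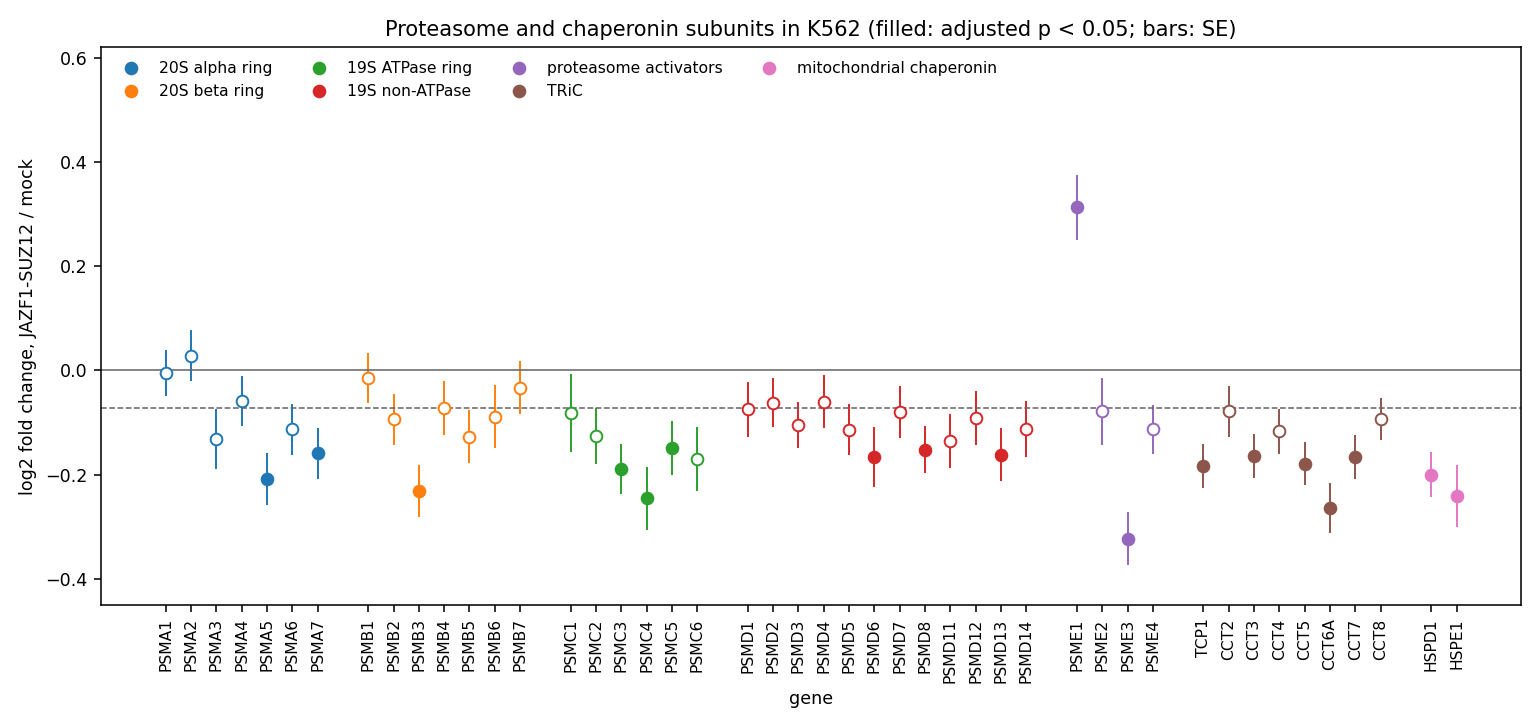
Log2 fold change of each member (JAZF1-SUZ12 over mock, y axis) with its standard error, ordered by complex (x axis), with filled points at adjusted p under 0.05 in the edgeR test. The dashed line at -0.072 is the median of genes in the same range of levels; PSME1 is the called point above 0 and PSME3 the lowest.

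Over the core and the 19S cap, 9 of 32 genes fell, or 28.1%, which is near the 25.1% of genes of the same range. By this share the 32 genes do not stand apart from other abundant genes. Their median log2 fold change was -0.112, beside -0.072 in that range, and 31 of them were below 0, beside 70.2%. In 22 both JAZF1-SUZ12 libraries lay below both mock libraries, beside 51.8% of genes in that range. With the GC and length correction the median was -0.043, beside -0.072. The summed level of the 32 genes was 5757 and 5478 CPM in JAZF1-SUZ12 and 6099 and 5945 CPM in mock, a difference of -6.73%. The groups did not overlap, and the gap between them was narrower than the gap between the JAZF1-SUZ12 libraries.

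**Figure D3:**
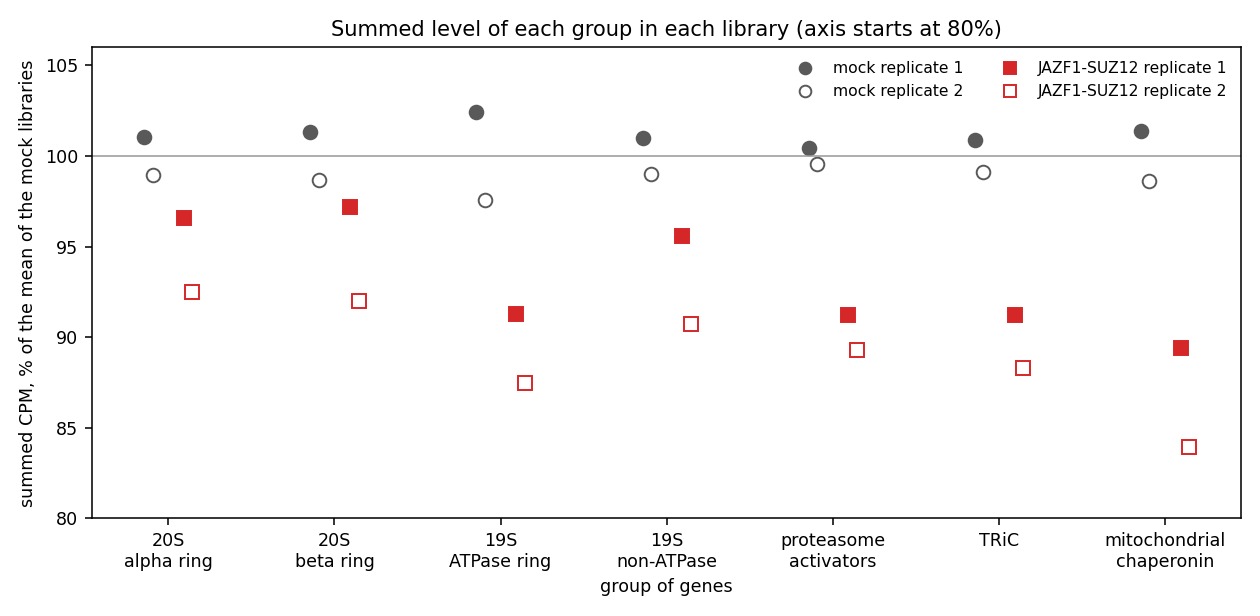
Summed CPM of each complex in each library as a percentage of the mean of the mock libraries (y axis, which starts at 80%), by group of genes (x axis), with circles for mock, squares for JAZF1-SUZ12, filled symbols for replicate 1 and open symbols for replicate 2. In each of the 7 groups both JAZF1-SUZ12 libraries lie below both mock libraries, and replicate 2 lies below replicate 1 in both conditions.

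Of the 7 genes of the alpha ring, which forms the gate of the core, PSMA5 and PSMA7 fell and the other 5 did not pass the test. The share called lower was 28.6%, near the 25.1% of genes in the members' range. PSMA5 (ENSG00000143106, chromosome 1, 109399031 to 109426427, minus strand, GRCh38) was at 169.5 and 161.5 CPM in JAZF1-SUZ12 and 195.2 and 187.1 CPM in mock. The groups did not overlap, and the log2 fold change was -0.209 ± 0.050 (SE, edgeR adjusted p = 0.00602). PSMA7 fell by 0.159 on the log2 scale (edgeR adjusted p = 0.0251). PSMA2 (ENSG00000106588, chromosome 7, 42916857 to 42932223, minus strand) went against its ring without passing the test. Its levels were 250.9 and 231.9 CPM against 235.2 and 237.7 CPM in mock, so the JAZF1-SUZ12 libraries lay on both sides of the mock libraries, and the log2 fold change was 0.028 ± 0.049 (SE, edgeR adjusted p = 0.726). A second protein-coding entry, AC010132.3, shares 781 exonic bases with PSMA2 on the same strand and held 242.6 to 347.7 counts, so the division of reads is uncertain. PSMA1 had a log2 fold change of -0.005, and those of PSMA3, PSMA4 and PSMA6 lay between -0.132 and -0.058. PSMA6 shares 919 exonic bases on the same strand with a protein-coding entry, AL121594.1, which held 182.6 to 309.8 counts, so its reads are uncertain too. The calls of PSMA5 (-0.089) and PSMA7 (-0.122) were lost with the GC and length correction, where PSMA1 was called higher at 0.116. The call of PSMA7 was also lost without JAZF1-SUZ12 replicate 2 (-0.111), mock replicate 1 (-0.166) or mock replicate 2 (-0.172).

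Of the 7 beta ring genes 14.3% were called lower, beside 25.1% of genes in the members' range. PSMB3, a structural subunit without a protease site, was the 1 that fell. It lies on chromosome 17 from 38752736 to 38764231 on the plus strand (ENSG00000277791). Its levels of 147.0 and 144.5 CPM lay below the 174.6 and 167.4 CPM of the mock libraries without overlap. The log2 fold change was -0.231 ± 0.050 (SE, edgeR adjusted p = 0.00287), and the gene was called lower in each of the 18 other fits tried. The subunits with protease sites did not pass the test: the log2 fold changes were -0.127 for PSMB5 (chymotrypsin-like site), -0.089 for PSMB6 (caspase-like) and -0.033 for PSMB7 (trypsin-like). PSMB1, PSMB2 and PSMB4 were between -0.094 and -0.015. With the GC and length correction PSMB1 was called higher, at 0.147.

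The sequence upstream of PSMB3 is shown because it holds a motif of the antioxidant response type, which NFE2L1 and NFE2L2 bind, and a pair of CCAAT boxes. RefSeq windows of 250 bases before and 50 after the start were found for 40 of the 46 members (GRCh38.p14), and the 250 bases before the start are printed 5′ to 3′ on the strand of the gene, with matches in capitals. The PSMB3 window is chr17:38752491-38752740 on the plus strand.
PSMB3: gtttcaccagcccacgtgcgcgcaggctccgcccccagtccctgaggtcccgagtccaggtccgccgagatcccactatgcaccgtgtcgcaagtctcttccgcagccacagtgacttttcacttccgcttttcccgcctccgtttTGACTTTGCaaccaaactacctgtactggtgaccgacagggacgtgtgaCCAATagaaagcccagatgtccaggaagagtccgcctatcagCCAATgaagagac
The motif searched was TGACNNNGC on both strands, and its match runs from -104 to -96 relative to the start.

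The 6 ATPases of the 19S base pull substrates into the core. PSMC3, PSMC4 and PSMC5 fell, the other 3 did not pass the test, and the median log2 fold change was -0.16. PSMC4 (ENSG00000013275, chromosome 19, 39971005 to 39981441, plus strand) was at 111.9 and 101.9 CPM against 121.7 and 131.3 CPM in mock. Each JAZF1-SUZ12 value was below each mock value, and the log2 fold change was -0.246 ± 0.060 (SE, edgeR adjusted p = 0.00694). PSMC3 fell by 0.189 (edgeR adjusted p = 0.00933) and PSMC5 by 0.149 (edgeR adjusted p = 0.0432). PSMC6 was just outside the threshold at -0.170 (edgeR adjusted p = 0.0509), and PSMC2 was at -0.126. PSMC1 was at -0.082 ± 0.075 (SE) and is uncertain, since the row of a pseudogene, PSMC1P1, led a set of copies with counts equal to 19.4% of its own. With the counts of these copies added, PSMC1 was at -0.159 and again did not pass the test. PSMC5 shares 874 exonic bases with FTSJ3 on the opposite strand, and whether counting used the strand is not given in the sources used here. PSMC5 lost its call with the GC and length correction (-0.079) and with any one library left out (-0.176 to -0.143), PSMC3 without mock replicate 1 (-0.163) and PSMC4 without JAZF1-SUZ12 replicate 2 (-0.178).

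Among the 12 other genes of the 19S cap, PSMD6, PSMD8 and PSMD13, all subunits of its lid, fell and 9 did not pass the test. PSMD8 (ENSG00000099341, chromosome 19, 38374536 to 38383824, plus strand) had the smallest p, with 228.8 and 218.7 CPM against 251.3 and 245.7 CPM. The log2 fold change of PSMD8 was -0.152 ± 0.046 (SE, edgeR adjusted p = 0.0252). PSMD6 (ENSG00000163636, chromosome 3, 64010549 to 64024010, minus strand) had the largest called change, with 83.8 and 78.46 CPM against 90.23 and 91.49 CPM. Its log2 fold change was -0.166 ± 0.058 (SE, edgeR adjusted p = 0.0463). In both genes the groups did not overlap. PSMD13 fell by 0.162 (edgeR adjusted p = 0.0278) and shares 316 exonic bases with SIRT3 on the opposite strand. The genes that did not pass ranged from -0.135 to -0.060. They include PSMD14, the deubiquitinase of the lid (-0.112), the ubiquitin receptor PSMD4 (-0.060), the scaffolds PSMD1 (-0.075) and PSMD2 (-0.062), the base assembly chaperone PSMD5 (-0.114), and PSMD3, PSMD7, PSMD11 and PSMD12.

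None of the 12 was called with the GC and length correction, where PSMD8 was at -0.116, PSMD6 at -0.091 and PSMD13 at -0.088. PSMD8 lost its call without JAZF1-SUZ12 replicate 2 (-0.12) or mock replicate 1 (-0.144), PSMD6 without JAZF1-SUZ12 replicate 2 (-0.117), mock replicate 1 (-0.184) or mock replicate 2 (-0.168), and PSMD13 without mock replicate 1 (-0.117).

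The activators moved in different directions. Of the 4, 1 was called lower and 1 higher, beside 25.1% and 8.2% of genes in the members' range. PSME3, which forms the nuclear activator PA28 gamma, had the largest change of all members. It lies on chromosome 17 from 42824385 to 42843758 on the plus strand (ENSG00000131467). PSME3 was at 197.2 and 181.0 CPM in JAZF1-SUZ12 and at 233.0 and 239.5 CPM in mock. The mock libraries were well above both others, and the log2 fold change was -0.323 ± 0.051 (SE, edgeR adjusted p = 0.00026), or -20.1%. PSME3 shares 300 exonic bases with BECN1 on the opposite strand.

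PSME1 was the only member called higher without the GC and length correction. It encodes the alpha subunit of PA28, an activator that interferon gamma induces and that is built together with the beta subunit PSME2. PSME1 (ENSG00000092010, chromosome 14, 24136158 to 24138967, plus strand) was at 61.21 and 62.70 CPM against 50.68 and 49.16 CPM in mock. The groups were separated by more than either pair of libraries differed, and the log2 fold change was 0.313 ± 0.062 (SE, edgeR adjusted p = 0.00169), a rise of 24.2%. In the authors' deposited table PSME1 did not pass the threshold.

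Its partner PSME2 (ENSG00000100911, chromosome 14, 24143362 to 24147570, minus strand) was at 48.43 and 48.79 CPM against 52.21 and 50.53 CPM, with a log2 fold change of -0.079 ± 0.064 (SE, edgeR adjusted p = 0.41). The log2 ratio of PSME1 to PSME2 within a library was 0.338 and 0.362 in JAZF1-SUZ12 and -0.043 and -0.040 in mock. With 2 libraries against 2, an exact two-sided permutation test of this ratio cannot give a p below 0.33. PSME4, which forms the activator PA200, was at -0.113 and did not pass the test. PSME1 and PSME3 were called in each of the 18 other fits, and PSME4 was also called lower with the GC and length correction, at -0.134.

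The upstream sequences of the 3 PA28 genes are given because these genes differed in direction or call. PSME1 (chr14:24135944-24136193, plus strand) and PSME2 (chr14:24146611-24146860, minus strand) each hold TGACNNNGC, shown in capitals. PSME3 (chr17:42833147-42833396, plus strand) holds a CCAAT box on the opposite strand, also in capitals. The windows precede the RefSeq starts, and those of PSME2 and PSME3 lie inside the longer gene spans that GENCODE 29 gives, while those of PSMB3, PSME1 and TCP1 overlap the spans in part.
PSME1: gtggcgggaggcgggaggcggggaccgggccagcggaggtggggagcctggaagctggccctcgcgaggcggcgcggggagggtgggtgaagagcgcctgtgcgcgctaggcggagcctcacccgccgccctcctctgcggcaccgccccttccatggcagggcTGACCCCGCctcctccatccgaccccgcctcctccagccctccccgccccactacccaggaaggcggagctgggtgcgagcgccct
PSME2: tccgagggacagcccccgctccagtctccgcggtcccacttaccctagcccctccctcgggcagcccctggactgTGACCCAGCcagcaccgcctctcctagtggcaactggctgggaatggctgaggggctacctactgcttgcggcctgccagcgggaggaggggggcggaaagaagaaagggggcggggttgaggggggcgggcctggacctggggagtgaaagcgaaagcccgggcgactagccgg
PSME3: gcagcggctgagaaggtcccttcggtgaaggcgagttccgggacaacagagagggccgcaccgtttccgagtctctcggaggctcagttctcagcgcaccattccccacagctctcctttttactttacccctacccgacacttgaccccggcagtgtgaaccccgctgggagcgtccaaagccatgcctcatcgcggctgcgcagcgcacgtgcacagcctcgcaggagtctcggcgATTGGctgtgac
The motif is thus present upstream of the gene that rose and of its partner that did not pass the test.

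In TRiC, 5 of 8 subunits fell and 3 did not pass the test. The median log2 fold change was -0.166, a change of -10.9%. The share of 62.5% stood beside the 25.1% of genes in the range of all members, which starts at PSME2. TRiC subunits lay well above that start, with mean mock levels from 381.7 CPM for CCT2 to 718.5 CPM for TCP1. No share was computed for genes at TRiC levels alone, in this fit or the others. How far the level of these genes accounts for the difference in shares was not tested. The summed level of TRiC was 4131 and 3998 CPM in JAZF1-SUZ12 and 4568 and 4490 CPM in mock, a difference of -10.3%. The gap between the groups was wider than that between libraries of either group.

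CCT6A, the zeta subunit, had the largest change and the smallest p of the complex (ENSG00000146731, chromosome 7, 56051630 to 56063989, plus strand). It was at 391.1 and 360.6 CPM against 462.6 and 440.1 CPM in mock. The groups did not overlap, and the log2 fold change was -0.265 ± 0.048 (SE, edgeR adjusted p = 0.00083). The other subunits that fell were TCP1, the alpha subunit (-0.184), CCT5, the epsilon subunit (-0.179), CCT7, the eta subunit (-0.167), and CCT3, the gamma subunit (-0.165), with edgeR adjusted p-values from 0.00452 for TCP1 to 0.00937 for CCT3. In TCP1 the levels were 649.3 and 615.6 CPM against 718.0 and 719.0 CPM, again without overlap. CCT4, CCT8 and CCT2 were at -0.117, -0.094 and -0.079 and did not pass the test. TCP1 shares 397 exonic bases with ACAT2 on the opposite strand. The ACAT2 counts, not scaled for depth, were 4082.3 and 5870.0 with JAZF1-SUZ12 and 4428.5 and 4304.3 in mock. The libraries held 17261160 to 24423239 counts, so these unscaled values do not give a direction.

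With the GC and length correction, 4 of the 8 were called lower, with TCP1 not called at -0.075, and the median was -0.093. Of genes in the members' range, 31.4% were then called lower, and their median was -0.072. CCT3 lost its call without mock replicate 1 (-0.144), while CCT5 and CCT6A were called in each of the 18 other fits and CCT7 in 17 of them. Per kilobase of transcript, the TRiC subunits lay between 166 CPM per kb for CCT6A and 349 CPM per kb for CCT8 in mock. Those of the core and the 19S cap spread more widely, from 18.9 CPM per kb for PSMC1 to 348 CPM per kb for PSMB1. The level of PSMC1 is uncertain because of its copies, and the next lowest was PSMD12 at 32.8 CPM per kb. These levels depend on the transcript taken as the length of the gene.

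The window of TCP1, the founding member of the family, is shown for the CCAAT box that 4 of the 7 TRiC genes with a window hold (chr6:159789603-159789852, minus strand). Capitals mark the box, which is on the opposite strand from -154 to -150.
TCP1: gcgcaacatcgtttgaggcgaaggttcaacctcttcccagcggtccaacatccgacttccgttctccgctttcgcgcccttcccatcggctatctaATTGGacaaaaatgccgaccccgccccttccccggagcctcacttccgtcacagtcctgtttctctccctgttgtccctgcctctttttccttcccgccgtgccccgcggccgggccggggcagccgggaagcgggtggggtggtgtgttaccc
The genes with this box were TCP1 and CCT3, which fell, and CCT2 and CCT8, which did not pass the test.

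Both subunits of the mitochondrial chaperonin fell, beside 25.1% of genes in the members' range called lower. HSPD1, the chamber (ENSG00000144381, chromosome 2, 197486581 to 197516737, minus strand), was at 737.1 and 692.1 CPM against 824.1 and 816.7 CPM in mock. Its log2 fold change was -0.200 ± 0.043 (SE, edgeR adjusted p = 0.0028). HSPE1, the lid (ENSG00000115541, chromosome 2, 197499994 to 197503457, plus strand), was at 150.1 and 140.9 CPM against 181.8 and 161.8 CPM. Its log2 fold change was -0.241 ± 0.059 (SE, edgeR adjusted p = 0.00705). The groups did not overlap for either gene. The log2 ratio of HSPE1 to HSPD1 was -2.296 in both libraries with JAZF1-SUZ12, against -2.181 and -2.335 in mock, so the JAZF1-SUZ12 values lay within the range of the mock values. Neither gene was called with the GC and length correction, where HSPD1 was at -0.093 and HSPE1 at -0.155, and HSPE1 was not called without mock replicate 1 (-0.163).

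These genes are transcribed away from each other, and the 104 bases between their RefSeq starts (chr2:197500275-197500378, plus strand) are printed because both genes share them. Annotated exons of the pair overlap by 281 bases in GENCODE 29, so reads there cannot be told apart without strand.
HSPD1-HSPE1 interval: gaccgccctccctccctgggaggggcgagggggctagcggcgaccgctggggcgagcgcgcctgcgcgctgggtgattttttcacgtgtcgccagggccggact
None of the motifs searched, which include only a strict form of the heat shock element, was in it.

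**Figure D4:**
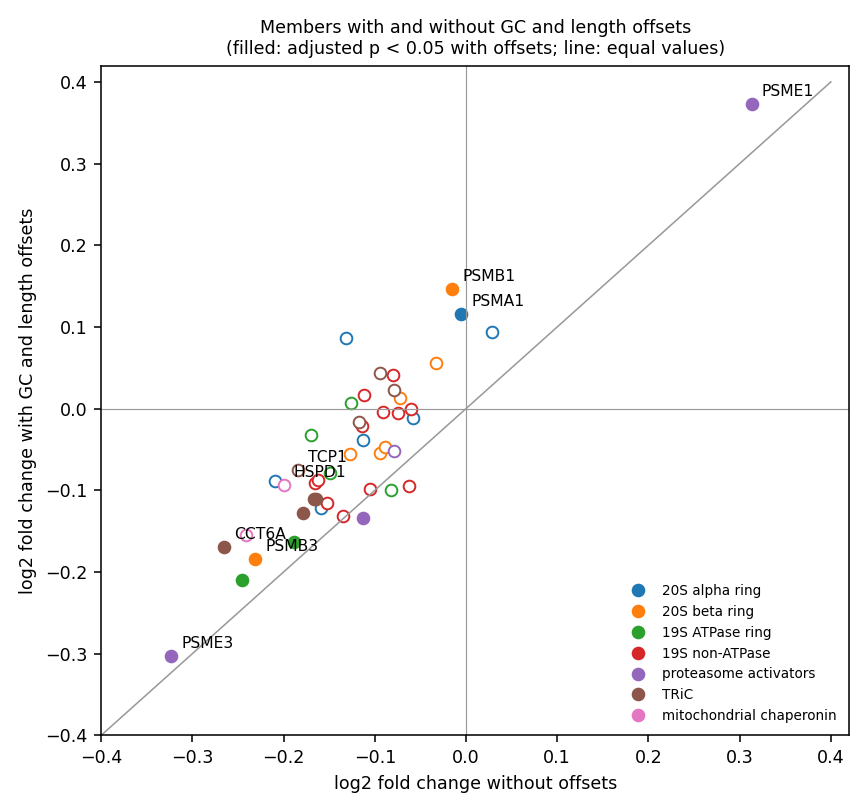
Log2 fold change of each member without (x axis) and with (y axis) the GC and length correction, coloured by complex, with filled points at adjusted p under 0.05 with the correction and a line of equal values. Most points lie above the line, while PSME1 has the highest and PSME3 the lowest value on both axes.

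Over the 40 windows of 300 bases, TGACNNNGC was found in 25% of members and in 13.6% of all 27305 genes with a window. The members with it were CCT4, PSMB3, PSMC4, PSMD1, PSMD3, PSMD5, PSMD12, PSME1, PSME2 and PSME4, of which PSMB3 and PSMC4 fell and PSME1 rose. CCAAT was in 47.5% of members and 35.7% of all genes. The ETS motif CCGGAAG was in 27.5% and 10.7%. The core of the motif of nuclear respiratory factor 1 (NRF1, a different factor from NFE2L1), GCGCATGC, was in 5% and 3.27%. With a further GC after the core, the NRF1 motif was in 2.5% and 1.36%. A heat shock element, written as GAA, any 2 bases, TTC, any 2 bases and GAA, was in 0 of 40 members and in 0.487% of all genes. This strict pattern was in only 2 of 13 cytosolic heat shock genes with a window, DNAJA1 and HSPA8. At so low a rate its absence from the members says little, and looser forms were not searched. All motifs were searched on both strands, the longer NRF1 motif contains the core, and a match is a description of letters only.

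Genes that act with the proteasome were examined as lists. The inducible subunits were low: PSMB8 was at 0.3448 to 1.089 CPM, PSMB9 at 3.891 to 5.604 CPM and PSMB10 at 18.0 to 22.56 CPM, and 0 of the 3 tested passed (edgeR adjusted p = 0.422, 0.663 and 0.0841). PSMA8 and PSMB11, the testis and thymus subunits, had 0 counts. Of the other 19S subunits, the ubiquitin receptor ADRM1 fell by 0.208 and SEM1 did not pass. Among 8 assembly chaperones PSMG1 fell by 0.241, or 12.5% of the list, beside 25.1% of genes in the members' range called lower. PSMG3, PSMG4, PSMD9 and PAAF1, at 34.29 to 47.28 CPM in mock, lay below that range, so these shares are not of genes with like levels. POMP, which matures the core, was at -0.081 (edgeR adjusted p = 0.312).

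Of 12 regulators and members of the NFE2L1 axis, 4 fell and 0 rose. This share of 33.3% stood beside 25.1% of genes in the members' range called lower. The deubiquitinase UCHL5 fell by 0.293, the segregase VCP by 0.206 and the deubiquitinase USP14 by 0.174, and NFE2L2 was the fourth. NFE2L1 itself was at 157.8 and 161.4 CPM against 160.6 and 163.7 CPM, a log2 difference of -0.022 ± 0.049 (SE, edgeR adjusted p = 0.788). Among 11 ubiquitin genes and shuttle receptors UBQLN4 fell by 0.279 and UBA6 by 0.153, or 18.2% of the list, and 9 did not pass. None of these lists had a gene called higher.

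Chaperone lists were taken in the same way. In the cytosolic heat shock list 11 of 14 genes fell and 0 rose, with a median of -0.234 and a summed level of 8589 and 8097 CPM against 9727 and 9349 CPM in mock. Among genes in the members' range of levels 25.1% were called lower, and some genes of this list lie above or below that range. The largest falls were those of the inducible HSP70 genes HSPA1B (-0.427) and HSPA1A (-0.410), a near-identical pair whose reads are hard to divide, and HSPA4, an HSP110 family protein, fell by 0.311. With the GC and length correction 10 of the 14 were called lower, beside 31.4% of genes in the members' range, and without mock replicate 1 the list had 8 calls. HSF1 was at 98.38 and 92.86 CPM against 89.04 and 92.87 CPM, a log2 difference of 0.070 ± 0.057 (SE, edgeR adjusted p = 0.417). Of 9 mitochondrial chaperones and proteases, DNAJA3 fell by 0.275, the mitochondrial HSP70 HSPA9 by 0.143 and TRAP1 by 0.15, or 33.3% of the list. Of 10 genes of prefoldin, which hands substrates to TRiC, and of other TRiC cofactors, PFDN2 fell by 0.248 and 9 did not pass. These shares are descriptions, since the lists were not tested against other genes.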

How the data were processed

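RNA was taken from K562 cells with a Monarch kit, and libraries were made with a directional NEBNext kit after poly(A) selection, per the labels' protocols. The authors deposited estimated counts per gene; 29.9% to 33.6% of the values of a library are not whole, and they were rounded here. The submitters' processing notes name hg38, fastp 0.20.1, FastQC 0.11.7, MultiQC 1.5, kallisto 0.46.2 and DESeq2 1.30.1, with no role or order. The deposited table of the authors' own comparison holds a mean signal (normalized counts), a log2 fold change, a score (the test statistic) and p-values, per the file headers.

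Genes were filtered with filterByExpr, scaled by TMM (factors 0.9912 to 1.017) and tested with edgeR 4.0.16 (R 4.3.3) by group only, with Benjamini-Hochberg adjustment over 14750 genes and a threshold of 0.05. CPM are TMM-scaled counts per 1000000. Positions are from GENCODE 29 (46 of 46 members matched); levels per kb use 1 transcript per gene. Alternatives used DESeq2 1.42.0, limma 3.58.1, other scalings and filters, left-out libraries and GC and length offsets (mgcv 1.9.3). The fitting code was tested on simulated data. The offsets were centred after a first version, which also moved the scaling of all genes and called more members lower, had been seen. What the replicate numbers mark is not given in the sources used here. Deviations of same-numbered libraries correlated at 0.0038 over 14750 genes and at -0.112 over the members. Replicate 2 lay below replicate 1 for 36 members in JAZF1-SUZ12 and 35 in mock, and a shared batch was not tested.

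The members and lists were chosen with earlier results of these data known. All 46 members are accounted for. Values in every library are given for the member with the smallest p, the called member with the largest change and any member against the direction of its group, for each group, and for HSPD1 and HSPE1. Up to 3 called genes per list are named, plus NFE2L1, HSF1, POMP, PSMB8, PSMB9 and PSMB10. Other members, such as PSME2 and TCP1, were singled out after their values were seen.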

Additional observations from a re-analysis of the deposited data

How the results depend on the processing

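None of the 18 called members changed direction in the 18 other fits, and CCT5, CCT6A, PSMB3, PSME1 and PSME3 were called in all of them. Other calls depended on the test, the scaling, the filter, the offsets or 1 library. PSMC5 was called in 5 and PSMD6 in 7 of the 18 other fits. Both lost their calls with the DESeq2 test, total counts, upper-quartile scaling and a mean of at least 50 counts. Upper-quartile scaling also removed the calls of PSMA7, PSMD8 and PSMD13. In at least 1 of the other fits 15 members, none of them called, changed sign. With 2 libraries a group, the smallest called change was 0.149, and PSMC6, at adjusted p = 0.0509 in edgeR, lay just outside the threshold. Counting error and the spread between libraries were not separated.

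With GC and length offsets, 9 members were called lower and 3 higher, beside 31.4% of genes in the members' range called lower. The median log2 fold changes were then -0.055 for all members, -0.011 for the alpha ring, -0.090 for the 19S ATPases, -0.054 for the other 19S genes, -0.093 for TRiC and -0.124 for the mitochondrial chaperonin. Members that changed sign were PSMA1 (0.116), PSMA3 (0.086), PSMB1 (0.147), PSMB4 (0.013), PSMB7 (0.056), PSMC2 (0.007), PSMD7 (0.041), PSMD14 (0.017), CCT2 (0.023) and CCT8 (0.043). With these offsets and a replicate block, 14 were called lower and 3 higher, beside 35.5% of genes in the members' range called lower, with medians of -0.055, -0.011, -0.087, -0.054, -0.093 and -0.123 in the same order. Signs changed there for PSMA1 (0.116), PSMA3 (0.086), PSMB1 (0.148), PSMB4 (0.012), PSMB7 (0.056), PSMC2 (0.009), PSMD7 (0.041), PSMD14 (0.018), CCT2 (0.023) and CCT8 (0.042). The replicate block alone gave 20 lower and 1 higher, beside 29.1% of genes in the members' range called lower. What the replicate numbers mark is not given.

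Alternatives chosen after seeing the data were offsets fitted on genes with a mean of at least 500 counts, and GC or length offsets alone. The first gave 11 lower and 2 higher, beside 17.9% of genes in the members' range called lower. Its medians were -0.035 for all members, -0.019 for the alpha ring, -0.017 for the beta ring and -0.072 for the ATPases. They were -0.031 for the other 19S genes, -0.039 for the activators, -0.084 for TRiC and -0.136 for the mitochondrial chaperonin. Genes in the members' range had a median of -0.011. Signs changed there for PSMA1 (0.088), PSMA4 (0.008), PSMB1 (0.087), PSMB4 (0.013), PSMB7 (0.047), PSMD1 (0.002), PSMD4 (0.021), PSMD7 (0.013), CCT2 (0.010) and CCT8 (0.003). GC alone gave medians of -0.030 for the alpha ring and -0.142 for TRiC, with PSMA1 at 0.020, PSMB1 at 0.050 and PSMD14 at 0.015. Length alone gave -0.074 for the alpha ring, -0.027 for the beta ring and -0.12 for TRiC, with PSMA1 at 0.051, PSMB1 at 0.034 and PSMB7 at 0.029.

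Upper-quartile scaling moved the median of all tested genes to 0.052. It gave 12 members lower, beside 15.7% of genes in the members' range, with PSMA1 at 0.042, PSMB1 at 0.032 and PSMB7 at 0.014. Medians were -0.067 for all members, -0.065 for the alpha ring, -0.061 for the other 19S genes, -0.048 for the activators and -0.118 for TRiC. Genes in the members' range had a median of -0.024. Total counts put PSMA1 at 0.017 and PSMB1 at 0.006. A mean of at least 50 counts put them at 0.018 and 0.009, and the TRiC median at -0.142. The cause of these moves was not tested.

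Leaving out 1 library at a time gave 10 to 26 members called and 9 to 25 called lower, the fewest without mock replicate 1 and the most without JAZF1-SUZ12 replicate 1. Of the genes in the members' range, 15.0% to 29.2% were called lower in these fits. Where a group then held 1 library, it was assumed to vary like the other group. Medians ranged from -0.154 to -0.105 for all members, -0.141 to -0.076 for the alpha ring, -0.135 to -0.037 for the beta ring and -0.133 to -0.079 for the activators. PSMA1 ranged from -0.025 to 0.007, PSMA2 from -0.033 to 0.085, PSMB1 from -0.078 to 0.029, PSMB7 from -0.087 to 0.016 and PSMC1 from -0.198 to 0.021.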
